A study of Mus musculus with 38 samples.

Results

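The genes described here are those of vesicle fusion and transmitter release, taken by their symbols: every gene whose symbol is Syt, Cplx, Stx, Stxbp, Vamp, Snap, Rims, Sv2 or Unc13 followed by a number or letter, with Syn1, Syn2, Syn3, Syp and Nsf, and without Snapc and Snapin. The rule found 65 genes of the 15644 named on the arrays, each with 1 probe set, and it reads symbols alone, although it was proposed with earlier results of these data known. Of these, 48 were among the 9799 genes tested and 17 were not, because they did not exceed log2 50 (5.64, the limit under which a level is called dim here) on at least 3 arrays. The 17 were Cplx4, Rims3, Snap29, Stx11, Stx19, Stxbp2, Sv2c, Syn3, Syt2, Syt3, Syt6, Syt8, Syt10, Sytl1, Sytl3, Sytl4 and Unc13d. The highest array value among them was 5.47, for Sv2c, so nothing is said of their differences. Snap91 met the rule by its letters but codes for AP180, a clathrin adaptor of vesicle retrieval. Vamp7-ps is annotated as a pseudogene, and its probes may also read its parent Vamp7, so its values are uncertain as to source.

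A vesicle fuses when a SNARE protein on it, a VAMP, zips with a syntaxin and a SNAP-25 type protein on the target membrane. Munc18 proteins hold the syntaxin, Munc13 and RIM proteins prime the vesicle, synaptotagmins sense calcium, complexins clamp and assist the fusion, and the ATPase Nsf takes the spent complex apart. Neurons use Snap25, Stx1a and Vamp2 for fast release, while paralogs such as Snap23, Stx2, Vamp3 and Vamp8 serve secretion and membrane recycling in many cell types.

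The 38 one-colour Affymetrix arrays formed 12 groups, with n = 3 arrays in each but n = 5 for cortex total RNA. The mice carried a mixed C57BL/6J, FVB and Swiss-Webster background, and RNA was bound to tagged ribosomes of 1 cell population (translating ribosome affinity purification) or was total RNA. From induced gliomas came bound RNA of Olig2 cells of the Recruited, Pdgf Cre and Pdgf models, then total RNA of the Recruited, Pdgf Cre and Pdgf models; the labels name the 3 models without giving their alleles or the ages of the mice. From cortex of adult mice without tumours, in pools of at least 2 mice, came bound RNA of neurons (the Snap25 line), oligodendrocyte progenitors (Pdgfra), mature oligodendrocytes (Cnp), astrocytes (Aldh1l1) and oligodendroglia as a whole (Olig2), and total RNA. The gene that drives the tag in the neuron line, Snap25, is itself one of the genes described. Whether replicates of a tumour group were separate animals is not stated, so their spread may in part be technical.

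Levels are on the log2 scale, with all 38 arrays quantile normalized together, given per array or as mean ± SD. The words rose and fell are kept for genes where limma's adjusted p was under 0.05 and the group means differed at least 2-fold after dim means were raised to the limit; differences are on the log2 scale with their standard error, and a fold against a dim group is written as at least that many. Of the labelled populations, neurons had 13 of 14 neuron markers outside the 65 genes above the limit, astrocytes 9 of 9 astrocyte markers, mature oligodendrocytes 9 of 9 of their markers and progenitors 8 of 8 of theirs. Progenitors also had 9 of 9 mature oligodendrocyte markers above it. Neuron markers were above it in glia as well, 14 of 14 in mature oligodendrocytes, 12 in progenitors, 9 in cortical Olig2 cells and 7 in astrocytes. Their mean level per array was 11.14 to 11.16 in neurons and 9.54 to 9.74 in mature oligodendrocytes. Among the tumour libraries, Recruited total replicate 3 stood apart, with a mean neuron marker level of 11.57, against 9.21 and 9.68 in the other 2, and a mean progenitor marker level of 8.78, against 11.98 and 11.54. Recruited bound replicate 1 also differed from the other 2 of its group, with a mean microglia marker level of 7.38, against 5.22 and 4.36, and a mean mature oligodendrocyte marker level of 10.78, against 12.26 and 13.24. Some triplets were almost identical (Stx1a at 7.84, 7.84 and 7.83 in Pdgf Cre Olig2 cells), and the deposited values of each group share a minimum of their own, as values normalized group by group would, so the p values measure only the spread between these arrays as deposited.

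Promoter sequence is shown for 4 genes that part neurons from glia in the results, Syn1 and Stx1a for the neuronal release machinery and Stxbp3 and Snap23 for the genes high in glia. Each is the 250 bases before the start used in the promoter table, 5′ to 3′ on the gene's strand (RefSeq, GRCm38.p6), which for Snap23 lies a few bases inside the outermost annotated start, and 51 of the 65 genes were in the promoter table. Capitals mark 3 motifs searched on both strands: TTCAGCACC, the left part of the RE1 element bound by the repressor REST; TGACGTCA, the full cAMP response element; and GGGCGG, the GC box, whose other strand reads CCGCCC. The Syn1 stretch is chrX:20920919-20921168 (minus strand), that of Stx1a chr5:135023232-135023481 (plus), that of Stxbp3 chr3:108840503-108840752 (minus) and that of Snap23 chr2:120567421-120567670 (plus).
Syn1: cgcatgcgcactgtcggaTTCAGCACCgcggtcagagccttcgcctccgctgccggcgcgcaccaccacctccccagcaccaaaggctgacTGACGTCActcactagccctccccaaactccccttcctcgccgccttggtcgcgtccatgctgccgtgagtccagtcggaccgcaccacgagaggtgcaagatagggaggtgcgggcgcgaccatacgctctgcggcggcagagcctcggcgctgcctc
Stx1a: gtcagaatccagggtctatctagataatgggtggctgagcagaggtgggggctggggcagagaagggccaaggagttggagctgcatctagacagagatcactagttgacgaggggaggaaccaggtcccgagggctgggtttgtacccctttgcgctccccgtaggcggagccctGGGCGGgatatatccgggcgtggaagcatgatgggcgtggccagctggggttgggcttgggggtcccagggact
Stxbp3: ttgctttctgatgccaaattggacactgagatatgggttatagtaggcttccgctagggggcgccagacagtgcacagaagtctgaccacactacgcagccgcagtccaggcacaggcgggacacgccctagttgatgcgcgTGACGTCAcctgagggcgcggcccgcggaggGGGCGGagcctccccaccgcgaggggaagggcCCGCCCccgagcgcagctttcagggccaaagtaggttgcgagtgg
Snap23: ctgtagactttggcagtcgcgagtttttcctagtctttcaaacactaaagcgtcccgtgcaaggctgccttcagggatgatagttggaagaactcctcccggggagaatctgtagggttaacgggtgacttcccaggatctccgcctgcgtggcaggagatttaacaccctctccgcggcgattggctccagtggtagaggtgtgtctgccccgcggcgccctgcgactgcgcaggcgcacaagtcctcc
Syn1 held the RE1 part at -232 from the start and the cAMP response element at -159. It was the 1 gene of the 51 with the RE1 part, which 0.348% of all 27025 genes with promoter sequence held. Stxbp3 held the cAMP response element at -108 (2 of 51 genes, against 1.77% of all 27025) and GC boxes on both strands. Stx1a held a GC box at -74 and Snap23 held no match. GC boxes were in 32 of the 51 (62.7%), against 35.4% of all 27025. The promoters of the tested genes among the 51 had a median GC content of 61.2%, against 52% over all 27025 genes, tested or not. A match is a string of letters and not a shown binding site.

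Across the groups 25 of the 65 genes stayed above the limit in all 12, among them Snap25, Vamp2, Vamp3, Stx1a, Nsf and Syt11. The number above it was 34 of 65 in Recruited, 32 in Pdgf Cre and 33 in Pdgf bound RNA, the lowest of the series, against 42 in neurons and 45 in cortex total RNA, the highest, although 47.1% to 47.6% of all named genes were above it in each group. A neuronal release set of 13 tested genes (Snap25, Stx1a, Vamp1, Vamp2, Nsf, Cplx1, Cplx2, Syt1, Sv2a, Sv2b, Syp, Syn1 and Syn2), had a median level of 7.78 in Recruited, 8.27 in Pdgf Cre and 8.07 in Pdgf bound RNA. It was 11.58 in neurons, 9.70 in progenitors, 10.48 in mature oligodendrocytes, 8.04 in astrocytes, 8.77 in cortical Olig2 cells and 11.70 in cortex total RNA. A set of 17 tested paralogs known as broadly expressed was highest in cortical Olig2 cells, with a median level of 10.38, and lowest in neurons, at 8.68, and cortex total RNA, at 8.18.

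**Figure D1:**
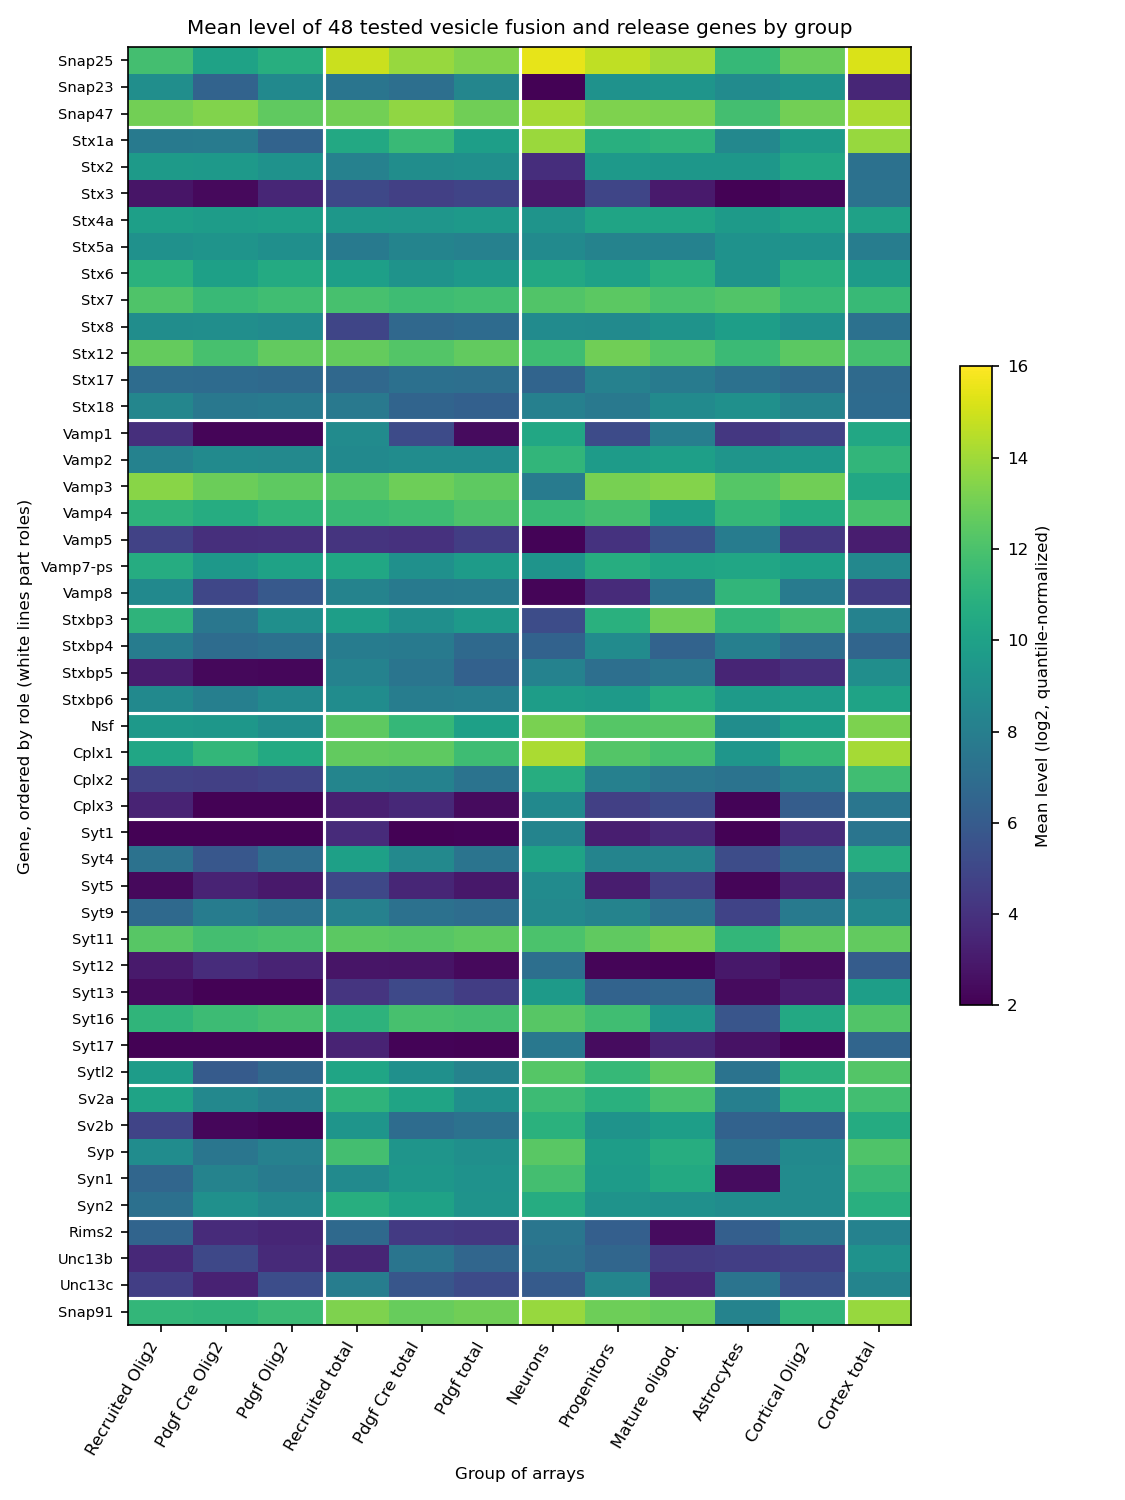
Mean log2 level of the 48 tested genes (rows, ordered by role and parted by white lines) in the 12 groups of arrays (columns, parted into tumour bound RNA, tumour total RNA, cortical bound RNA and cortex total RNA). Syn1 is dark in astrocytes and Stx2 in neurons. Syt1 and Syt17 are dark in all groups but neurons and cortex total RNA, and Cplx3 is dark in astrocytes and the tumour groups. Snap23 and Vamp8 are dark in both neurons and cortex total RNA.

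Between bound RNA of neurons and cortex total RNA (n = 3 against 5), limma called 0 of the 13 release genes higher and 0 lower, with a median difference of 0.05, against 0.00 over all genes tested. Without the 2-fold requirement 10 of the 48 genes would have risen and 14 fallen. Snap25 stood at 15.55, 15.41 and 15.41 in neurons and between 15.10 and 15.26, with a median of 15.22, in cortex total RNA, a difference of 0.24 ± 0.30 (SE, limma adjusted p = 0.534). The genes that fell were paralogs found in other cell types and priming factors. Vamp3, the VAMP of recycling endosomes, stood at 7.79, 7.78 and 7.86 in neurons and between 9.77 and 10.75 in cortex total RNA, and fell 6.05-fold (-2.60 ± 0.19 SE, limma adjusted p = 1.44e-12). Stxbp3, also called Munc18c, fell at least 5.80-fold to a dim level, and the plasma membrane syntaxins Stx2 and Stx3 fell at least 3.01-fold and at least 3.07-fold, calls that ended with a dim limit of log2 100 (-0.59 and -0.62). The Munc13 genes Unc13c and Unc13b fell 5.01-fold and 3.65-fold. These arrays did not overlap between the groups.

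In all 5 of the 48 genes rose and 6 fell in neurons, where 8.32% of all genes tested rose and 9.12% fell. The 5 were Stx8, an endosomal syntaxin (1.51), Stx18 of the endoplasmic reticulum (1.18), Cplx3 (1.17), Syt5 (1.11) and Syt12 (1.04). Cplx3 lost its call without any 1 of the 8 arrays compared (adjusted p 0.0553 to 0.117), Syt5 without any of 6 of them and Syt12 without neuron replicate 3 or cortex replicate 3, so that between 2 and 5 genes rose. On the deposited scale, where the median of all genes in neurons shifted by 0.53, 17 of the 48 rose and 6 fell. Outside the 48, 0 of the 14 neuron markers rose and 1 fell by limma, with a mean level per array of 11.14 to 11.16 in neurons and 11.23 to 11.83 in cortex total RNA.

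**Figure D2:**
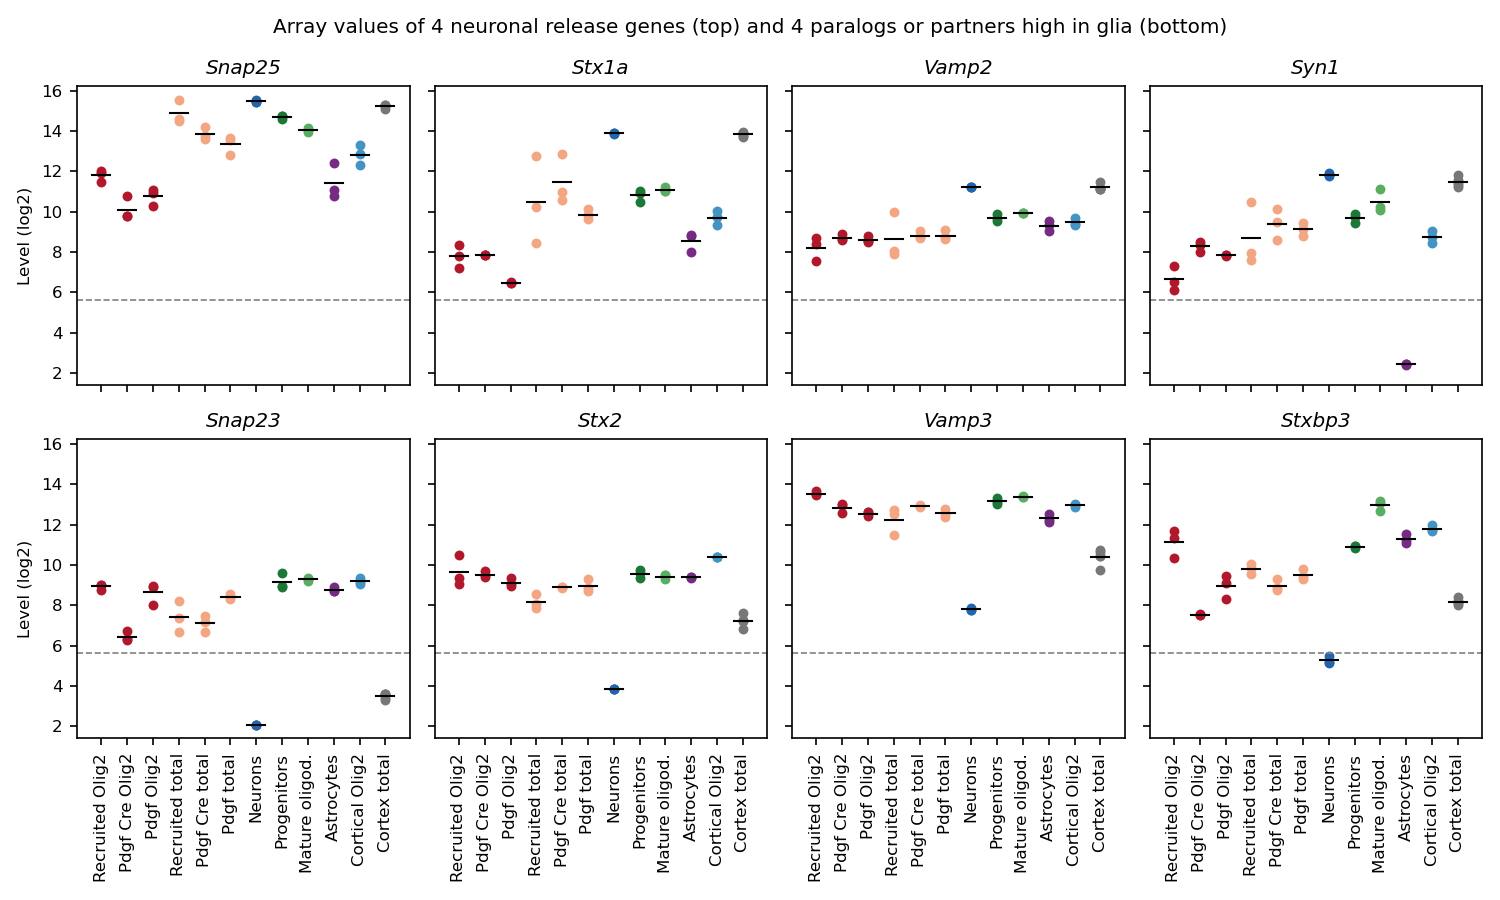
Log2 level on each array (points) and group mean (bars) of Snap25, Stx1a, Vamp2 and Syn1 in the top row and Snap23, Stx2, Vamp3 and Stxbp3 in the bottom row, over the 12 groups; the dashed line is the dim limit of 5.64. Snap23 and Stx2 lie under the line in neurons and above it in each of the 4 glial populations, and Syn1 lies under it in astrocytes.

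Bound RNA of astrocytes had less of the neuronal release genes than cortex total RNA (n = 3 against 5), although 10 of the 13 stayed above the limit. All 13 of the 13 release genes fell, with a median difference of -4.36, against 0.00 over all genes tested. Over the 48 genes 11 rose and 27 fell, where 25.6% of all genes tested rose and 23.8% fell. Snap25 stood at 10.76, 12.39 and 11.06 in astrocytes, against 15.10 to 15.26 in cortex total RNA, and fell 14.1-fold (-3.81 ± 0.30 SE, limma adjusted p = 1.36e-12). Syn1, a synapsin that tethers vesicles, stood at 2.47, 2.42 and 2.47 in astrocytes, against 11.20 to 11.83 in cortex total RNA, and fell at least 57-fold. Each of these genes had all 3 astrocyte arrays below all 5 cortex arrays.

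Syt16, a synaptotagmin thought not to bind calcium, had the largest measured fall of the 48, 90.8-fold, to 4.91, 6.07 and 6.06 in astrocytes, against 11.87 to 12.42 in cortex total RNA. The AP180 gene Snap91 fell 48.6-fold, Stx1a 38.7-fold and Syp (synaptophysin) 31.6-fold, and Syt4 fell at least 32.1-fold. All 3 of the 3 complexins tested fell, as did 7 of 9 synaptotagmins and 5 of 5 vesicle membrane and synapsin genes. The neuron markers outside the 48 moved along: 14 of 14 fell, their log2 summed level was 11.56 to 12.03 in astrocytes and 16.19 to 16.53 in cortex total RNA, and Nefm, Nefh, Stmn2, Gad2, Slc17a7, Tbr1 and Camk2a were dim in astrocytes. Their part in the falls of the release genes was not tested.

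The broadly expressed paralogs went the other way in astrocytes, with 8 of 17 higher and 3 lower (median 0.79). Vamp8, also called endobrevin, stood at 11.19, 11.11 and 11.41 in astrocytes, against 3.98 to 4.83 in cortex total RNA, and rose at least 48.4-fold (limma adjusted p = 7.84e-23). No other group had it as high: the highest array elsewhere was 8.82, in Recruited Olig2 cells. Snap23, the broadly expressed counterpart of Snap25, rose at least 8.80-fold to 8.71, 8.90 and 8.73 in astrocytes, against 3.31 to 3.61 in cortex total RNA. Stxbp3 rose 8.63-fold, Stx8 6.04-fold and Stx2 4.47-fold. Vamp5, a VAMP first described in muscle, was above the limit in astrocytes alone among the 12 group means, at 7.71, 8.16 and 7.71, against 3.06 to 3.22 in cortex total RNA.

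In bound RNA of mature oligodendrocytes (n = 3 against 5) 9 of the 13 release genes fell (median -1.44, against 0.00 over all genes tested), and Nsf, Sv2a, Sv2b and Syn1 did not pass. Sv2a, a synaptic vesicle glycoprotein bound by the drug levetiracetam, stood at 11.95, 11.74 and 12.06 in mature oligodendrocytes, against 11.45 to 12.51 in cortex total RNA (0.18 ± 0.36 SE, limma adjusted p = 0.672). Cplx2, a complexin, fell 17.7-fold to 7.53, 7.61 and 7.52, against 11.57 to 11.78 in cortex total RNA. Snap25, Syp and Vamp2 fell 2.27-fold, 2.71-fold and 2.43-fold, but these 3 calls were lost on the deposited scale (-0.73, -0.91 and -0.82) and with spike-in scaling (-0.63, -0.80 and -0.72). Stx1a fell 6.65-fold, Syt13 9.30-fold, Syt16 7.17-fold and Unc13b at least 11.3-fold. All 14 neuron markers outside the 48 were above the limit in these arrays, with 12 of 14 lower and a log2 summed level of 14.24 to 14.62, against 16.19 to 16.53 in cortex total RNA; their part was not tested.

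Over the 48 genes 9 rose and 23 fell in mature oligodendrocytes, where 19.9% of all genes tested rose and 21.0% fell; on the deposited scale 13 rose and 17 fell, and with spike-in scaling 14 rose and 17 fell. Stxbp3 stood at 13.18, 13.06 and 12.68 in mature oligodendrocytes, against at most 8.42 and a median of 8.17 in cortex total RNA, and rose 27.8-fold (4.80 ± 0.22 SE, limma adjusted p = 1.14e-17), its highest level in the series. Snap23 rose at least 12.5-fold, Vamp3 7.89-fold, Stx2 4.56-fold and Stx8 3.80-fold. Vamp4, a VAMP of the trans-Golgi network, fell 4.47-fold here and was not lower than 2-fold in astrocytes or progenitors. It was lower in cortical Olig2 cells too, at 10.40, 10.48 and 10.88, against 11.68 to 12.15 in cortex total RNA. Of the 17 broadly expressed paralogs 8 rose and 3 fell (median 0.98).

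In bound RNA of progenitors (n = 3 against 5) 10 of the 13 release genes fell (median -1.81, against 0.00 over all genes tested), and Snap25, Nsf and Sv2a did not pass. Snap25 stood at 14.59, 14.72 and 14.72 in progenitors, against 15.10 to 15.26 in cortex total RNA, lower on every array but by less than 2-fold (-0.54 ± 0.30 SE, limma adjusted p = 0.103). Vamp1 fell at least 26.8-fold to dim levels of 5.20 to 5.21, and Cplx2 fell 12.1-fold, Syt13 10.2-fold, Stx1a 8.08-fold and Unc13b 5.72-fold. Over the 48 genes 10 rose and 18 fell, where 18.0% of all genes tested rose and 17.9% fell. Snap23 rose at least 11.5-fold, Vamp3 6.68-fold, Stxbp3 6.59-fold, Stx2 5.03-fold and Stxbp4 (synip) 4.55-fold. Stx17, the autophagosome syntaxin, rose 2.51-fold to 8.33, 8.24 and 7.88 in progenitors, against 6.69 to 6.88 in cortex total RNA. Neuron markers outside the 48 fell in 14 of 14, with a mean level per array of 8.71 to 8.94, against 11.23 to 11.83 in cortex total RNA, and Gad2 and Camk2a were dim; their part was not tested. The actin 3′ minus 5′ difference was 6.48 in progenitors and 4.57 in cortex total RNA, and its part was not tested either.

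In cortical Olig2 cells 12 of the 13 release genes fell (n = 3 against 5, median -2.74, against 0.00 over all genes tested). Sv2a was the exception, at 10.87, 11.10 and 10.81 in Olig2 cells, against 11.45 to 12.51 in cortex total RNA (-0.81 ± 0.36 SE, limma adjusted p = 0.0441, under 2-fold). Vamp1 fell at least 26.8-fold, Sv2b 19.3-fold, Syt4 17.7-fold, Stx1a 17.5-fold and Syt13 at least 18.2-fold. Over the 48 genes 10 rose and 25 fell, where 22.3% of all genes tested rose and 20.8% fell. Of the broadly expressed paralogs 9 of 17 rose and 3 fell (median 1.14), led by Stxbp3 (12.3-fold), Snap23 (at least 11.7-fold), Stx2 (8.86-fold), Vamp3 (5.86-fold) and Vamp8 (at least 4.48-fold). All 14 of the 14 neuron markers were lower too, with a log2 summed level of 12.73 to 13.01, against 16.19 to 16.53 in cortex total RNA, and Nefh, Gad2, Slc17a7, Tbr1 and Camk2a were dim; their part was not tested. All 5 cortical comparisons share the cortex total RNA arrays, so their values are not independent of each other.

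Set against each glial population directly (n = 3 each), neurons were higher in release genes and lower in a small group of paralogs. Against astrocytes 27 of the 48 were higher and 10 lower (23.9% and 22.2% of all genes tested; with spike-in scaling 31 and 6), with 13 of 13 release genes higher (median 4.31). Against mature oligodendrocytes 22 were higher and 7 lower (22.2% and 18.4% of all genes tested), with 10 of 13 release genes higher. Against progenitors 17 were higher and 9 lower (20.2% and 17.9% of all genes tested), again with 10 of 13 release genes higher; this split was 32 to 7 on the deposited scale and 25 to 7 with spike-in scaling. Examples of genes higher in neurons were Syt16 against astrocytes (101-fold), Cplx2 against mature oligodendrocytes (9.08-fold) and Vamp1 against progenitors (at least 26.7-fold).

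Snap23, Stx2, Stxbp3 and Vamp3 were lower in neurons than in each of the 3 glial populations. Snap23 was at 2.08 on all 3 neuron arrays, against 8.71 to 9.60 over the 9 arrays of astrocytes, mature oligodendrocytes and progenitors, so it was at least 8.80-fold to at least 12.5-fold lower in neurons. Stx2 was at 3.84 on all 3 neuron arrays, against 9.30 to 9.76 in the glia, at least 13.5-fold to at least 15.1-fold lower in neurons. Stxbp3 was lower by at least 50.1-fold, at least 161-fold and at least 38.2-fold against astrocytes, mature oligodendrocytes and progenitors in that order. Vamp3 was 22.6-fold, 47.8-fold and 40.5-fold lower in the same order, while its neuronal paralog Vamp2 was 3.75-fold, 2.45-fold and 2.85-fold higher in neurons. The smallest of these adjusted p values was 1.47e-21, for Stxbp3, and the largest 0.000625, for Vamp2, by limma. Stx12, an endosomal syntaxin, was 2.45-fold lower in neurons than in progenitors, but on the deposited scale this difference was 0.02 (limma adjusted p = 0.93).

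Progenitors and mature oligodendrocytes differed in 4 genes that were higher in progenitors and 6 that were lower, of the 48 (n = 3 each; 13.7% and 14.6% of all genes tested). The split was 4 to 11 on the deposited scale and 4 to 13 with spike-in scaling. Unc13c, a Munc13 priming factor, stood at 8.36, 8.38 and 8.32 in progenitors and at 3.66, 3.65 and 3.45 in mature oligodendrocytes, at least 6.55-fold higher. Syt16 was 5.19-fold higher, at 11.67, 11.92 and 11.57 in progenitors, against 9.35, 9.36 and 9.33 in mature oligodendrocytes. Stxbp4 was 4.85-fold and Vamp4 4.10-fold higher. Vamp1 was at least 4.99-fold lower in progenitors, Stxbp3 4.22-fold and Vamp8 at least 3.22-fold, and Stxbp6 (amisyn), Sv2a and Stx18 were lower by 1.10, 1.03 and 1.01 on the log2 scale. The Sv2a call was lost without mature oligodendrocyte replicate 1 or 3 or progenitor replicate 1 (limma adjusted p 0.0631, 0.0797 and 0.157), and that of Stx18 without mature oligodendrocyte replicate 3 or progenitor replicate 1 or 2 (-0.98, -0.94 and -0.94). Of the release set 2 of 13 were lower, Vamp1 and, with that limit, Sv2a, and the neuron markers outside the 48 were lower in 4 of 14.

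**Figure D3:**
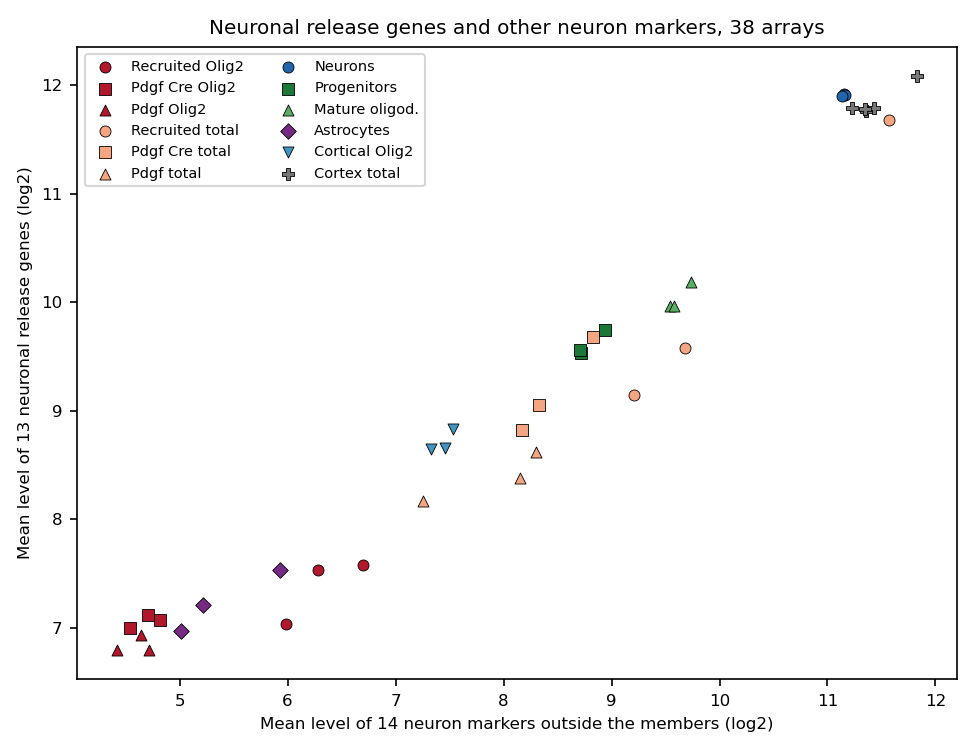
Mean log2 level of the 13 release genes (vertical axis) against that of the 14 neuron markers outside the members (horizontal axis), 1 point per array, over 38 arrays of 12 groups. The neuron marker mean is under 5 on all 6 arrays of Pdgf and Pdgf Cre Olig2 cells, the release mean of astrocytes and Recruited Olig2 cells overlaps theirs, and Recruited total replicate 3, at 11.57 and 11.68, lies beside the cortex arrays.

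Tumour Olig2 cells, taken as the mean of the 3 models, carried less of several fusion genes than cortical Olig2 cells did (n = 9 arrays against 3). Of the 48 genes 1 rose and 11 fell, where 8.06% of all genes tested rose and 9.36% fell; in 6 of these 12 the arrays of the groups did not overlap. The release set held 5 of the falls among 13, Cplx2, Stx1a, Sv2a, Snap25 and Syn1 (median -0.72, against 0.00 over all genes tested). The broadly expressed set held 3 of 17, Stxbp3, Snap23 and Vamp8. By model, the Snap23 difference was -0.25 in Recruited, -2.76 in Pdgf Cre and -0.56 in Pdgf, so that only Pdgf Cre passed 2-fold. In the same order Syn1 was at -2.10, -0.47 and -0.91, with only Recruited past 2-fold. Snap25 stood at 11.89, 11.46 and 12.02 in Recruited, 9.76, 9.76 and 10.75 in Pdgf Cre and 10.30, 11.08 and 10.93 in Pdgf cells, against 12.32, 12.87 and 13.29 in cortical Olig2 cells. Each of the 9 tumour arrays lay below the 3 cortical ones, and the fall was 3.85-fold (-1.94 ± 0.27 SE, limma adjusted p = 5.67e-07).

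Sytl2, a synaptotagmin-like effector of Rab27 that helps dock vesicles, had the largest measured fall, 11.3-fold (-3.49 ± 0.48 SE, limma adjusted p = 4.72e-07). It stood at 8.38, 9.94 and 10.84 in Recruited, 6.48, 6.48 and 5.17 in Pdgf Cre and 6.70, 6.69 and 6.80 in Pdgf cells, against 10.75, 10.81 and 11.41 in cortical Olig2 cells. The Recruited arrays reached into the cortical range and the other 6 did not. Stxbp3 fell 6.05-fold, with 10.33, 11.36 and 11.69 in Recruited, 7.57, 7.52 and 7.51 in Pdgf Cre and 8.33, 9.44 and 9.10 in Pdgf cells, against 11.75, 11.70 and 11.96 in cortical Olig2 cells. Stx1a fell 5.06-fold and Sv2a 4.04-fold, and Cplx2 was dim in all 9 tumour arrays (4.63 to 4.87) and fell at least 5.60-fold.

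Syt16 was the gene that rose, 2.14-fold (1.09 ± 0.24 SE, limma adjusted p = 0.000339), at 11.28, 11.80 and 10.40 in Recruited, 11.36, 11.61 and 11.83 in Pdgf Cre and 11.47, 12.13 and 12.08 in Pdgf cells, against 10.49, 10.43 and 10.44 in cortical Olig2 cells. Recruited replicate 3 lay below the cortical arrays, and without Recruited replicate 2 the difference was 0.99, just under 2-fold. Vamp8 fell at least 2.11-fold as a mean, but by model the difference was 0.84 in Recruited, -2.16 in Pdgf Cre and -1.91 in Pdgf, and its call was lost on the deposited scale (-0.81), with spike-in scaling (-0.92) and without cortical Olig2 replicate 1 or 2 or Pdgf replicate 1 (-0.96, -0.96 and -0.97). Syn1 lost its call without cortical Olig2 replicate 2 (limma adjusted p = 0.051) and with spike-in scaling (0.0676), and Rims2, whose Recruited arrays ran from 3.12 to 8.67, without Recruited replicate 1 (-0.91). Without that library, 1 of the 48 genes rose and 10 fell.

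**Figure D4:**
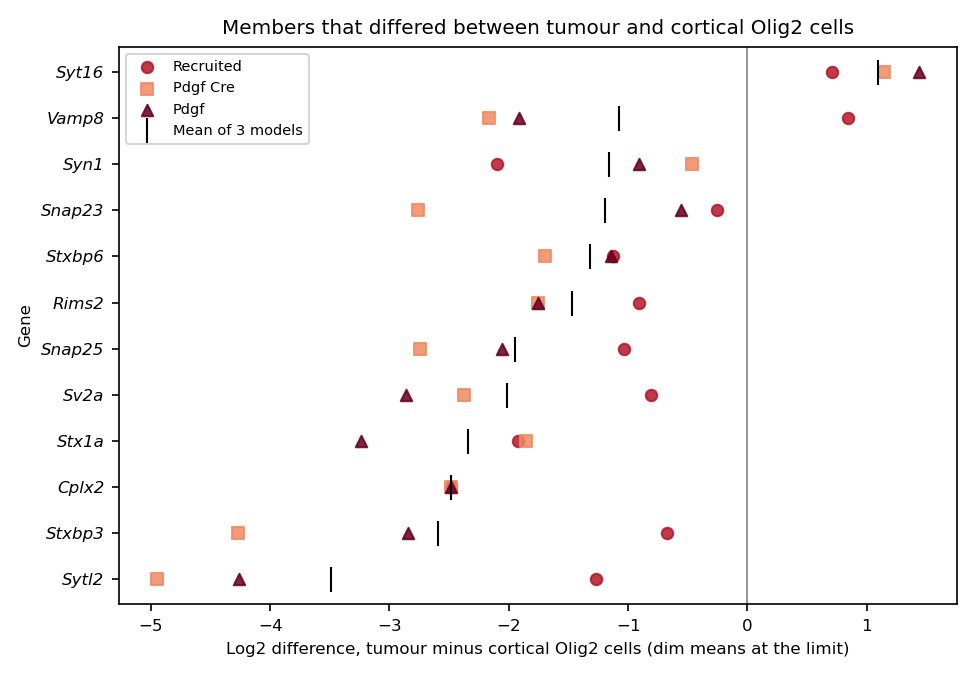
Log2 difference of tumour minus cortical Olig2 cells for the 12 genes that passed, by model (Recruited, Pdgf Cre and Pdgf symbols) and as their mean (black bar), with dim means raised to the limit. Recruited lies nearest to 0 for Sytl2, Stxbp3, Sv2a and Snap25, and Vamp8 lies above 0 in Recruited at 0.84 and below it in the other 2 models.

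Against cortical progenitors, the tumour Olig2 cells were lower in 20 of the 48 genes and higher in 1 (n = 9 arrays against 3; 13.1% of all genes tested were lower and 11.5% higher). In the release set 10 of 13 were lower (median -1.97). Sytl2 was 14.7-fold, Snap25 13.8-fold, Stx1a 10.9-fold and Nsf 8.30-fold lower, and Sv2b at least 11.8-fold. Vamp8 was higher, 2.12-fold with dim means raised to the limit, where progenitors were dim at 3.69, 3.70 and 3.73 and so were Pdgf Cre cells; this call was lost with spike-in scaling and with a dim limit of log2 100. Markers moved with these differences: against cortical Olig2 cells 6 of 14 neuron markers were lower and against progenitors 11 of 14. Their mean level per array was 5.98 to 6.70 in Recruited, 4.54 to 4.81 in Pdgf Cre and 4.42 to 4.72 in Pdgf Olig2 cells, against 7.33 to 7.53 in cortical Olig2 cells and 8.71 to 8.94 in progenitors, and their log2 summed level was 12.04 to 12.53, 10.18 to 10.59 and 10.54 to 11.29 in the 3 models, against 12.73 to 13.01 in cortical Olig2 cells. Rbfox3, Gad2, Slc17a7, Tbr1 and Camk2a were dim in all 3 tumour groups. Mature oligodendrocyte markers above the limit were 9 of 9 in Recruited, 8 of 9 in Pdgf Cre and 4 of 9 in Pdgf Olig2 cells, against 9 of 9 in cortical Olig2 cells, with log2 summed levels of 15.12 to 16.92, 11.52 to 12.83 and 11.95 to 12.47, against 16.59 to 16.71. The part of either marker list in these results was not tested.

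Between the models, Recruited against Pdgf Cre Olig2 cells (n = 3 each) gave 9 of 48 genes higher and 3 lower, where 11.7% and 12.1% of all genes tested were, with splits of 16 to 2 on the deposited scale and 6 to 4 with spike-in scaling. Sytl2 was 12.8-fold higher, Stxbp3 12.1-fold, Vamp8 at least 8.02-fold, Snap23 5.69-fold and Snap25 3.26-fold. Snap23 stood at 9.03, 8.78 and 9.02 in Recruited and 6.27, 6.32 and 6.71 in Pdgf Cre cells. The synapsins ran the other way: Syn2 was 3.60-fold lower, at 7.28, 7.43 and 6.86 in Recruited and 9.43, 8.84 and 8.85 in Pdgf Cre cells, and Syn1 was 3.09-fold and Syt9 2.09-fold lower. Syp, Syt9 and Stx6 each lost their call without at least 1 of the 6 arrays (Syp 0.82 without Recruited replicate 2, Syt9 -0.85 without Pdgf Cre replicate 2 and Stx6 0.87 without Recruited replicate 3). Fitted on the compared groups alone, Sv2a and Syp lost theirs (limma adjusted p = 0.105 and 0.117), and Syt9 did so on the deposited scale (0.144). Without Recruited replicate 1, 10 were higher and 3 lower.

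Against Pdgf cells, Recruited cells were higher in 5 of 48 and lower in 2 (8.13% and 8.04% of all genes tested). Vamp8 was 6.74-fold higher, at 8.59, 8.53 and 8.82 in Recruited and 5.23, 6.14 and 6.31 in Pdgf cells, and Sytl2 was 7.95-fold, Stxbp3 4.52-fold, Sv2a 4.16-fold and Snap25 2.03-fold higher. Syn2 and Syn1 were 2.42-fold and 2.28-fold lower. The Snap25 call was lost without Pdgf replicate 1 or Recruited replicate 1 or 3, and the Syn1 call without any array except Recruited replicate 2; both were lost with spike-in scaling (limma adjusted p = 0.197 and 0.0766). Fitted on the compared groups alone, Sv2a lost its call (0.0721), and without Recruited replicate 1, 6 were higher and 1 lower. Pdgf Cre against Pdgf cells gave 0 higher and 2 lower of 48 (4.48% and 4.79% of all genes tested; with no 2-fold requirement limma gave 3 and 9). Snap23 was 4.61-fold lower, at 6.27, 6.32 and 6.71 in Pdgf Cre and 8.02, 8.93 and 8.97 in Pdgf cells, and Stxbp3 was 2.68-fold lower. The 3 contrasts share their arrays pairwise. Astrocyte markers differed too: 9 of 9 were above the limit in Recruited, 4 of 9 in Pdgf Cre and 3 of 9 in Pdgf Olig2 cells, with log2 summed levels of 13.99 to 14.21, 9.54 to 9.98 and 9.53 to 9.83, and Aqp4, Slc1a2, Aldh1l1, Slc4a4 and Gjb6 were dim in both Pdgf Cre and Pdgf cells. Their part, and that of the neuron and mature oligodendrocyte markers given above, was not tested.

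Within tumours, bound RNA of Olig2 cells was compared with total RNA to see which transcripts the Olig2 cells carry above their tissue (means of 3 models, n = 9 each). Of the 48 genes 3 rose and 16 fell, where 11.5% of all genes tested rose and 11.3% fell; the split was 1 to 18 on both other scales. Among the release genes 11 of 13 fell (median -1.76, against 0.00 over all genes tested), all but Vamp2 (-0.25 ± 0.18 SE, limma adjusted p = 0.21) and Syt1, which was dim in both. Stx1a fell 9.45-fold, at 7.19 to 8.33 in Recruited, 7.83 to 7.84 in Pdgf Cre and 6.44 to 6.49 in Pdgf bound RNA, against 8.46 to 12.74, 10.60 to 12.84 and 9.62 to 10.12 in total RNA of the same models. Snap25 fell 8.79-fold, Cplx2 at least 5.01-fold, Sv2b at least 4.54-fold and Nsf 4.07-fold.

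Stx8 rose in the bound RNA, at least 5.37-fold, at 8.24 to 9.53 over the 9 bound arrays, against 4.78 to 7.04 over the 9 total arrays, without overlap. Stx18 and Stx5a, syntaxins of the endoplasmic reticulum and Golgi, rose 2.14-fold and 2.03-fold; both calls were lost on the deposited scale and with spike-in scaling, and that of Stx5a also without Pdgf Cre total replicate 1, Pdgf bound replicate 2 or Recruited total replicate 1. The cortical bound groups, neurons included, also had more Stx8 than cortex total RNA (8.57 to 9.98 over their arrays, against 6.80 to 7.59). In them Stx18 was at 7.53 to 9.08, against 6.86 to 7.05, and Stx5a at 8.10 to 9.27, against 7.75 to 8.16. These 3 rises were thus not particular to tumour Olig2 cells. Without Recruited total replicate 3, 3 rose and 15 fell, and Vamp1 lost its call (-0.84). Sv2a lost its call without Recruited bound replicate 1 (-0.95). Neuron markers moved along, lower in 9 of 14, with a log2 summed level of 10.18 to 12.53 over the bound arrays, against 13.15 to 16.63 over the total arrays. Microglia markers were lower in 6 of 6 (median -4.79) and mature oligodendrocyte markers higher in 4 of 9 (median 1.03). The part of these lists was not tested.

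Total RNA of the tumours had less of the release genes than cortex total RNA (means of 3 models, n = 9 against 5). Fewer neurons in the tissue and less RNA per neuron cannot be told apart in such bulk samples. Of the 13 release genes 12 fell (median -2.13, against 0.00 over all genes tested), and Syn2 did not pass (-0.83 ± 0.19 SE, limma adjusted p = 0.000322, under 2-fold). By model, the Recruited mean lay less than 2-fold below cortex for Snap25 (-0.35), Syp (-0.33), Sv2a (-0.61), Nsf (-0.69) and Syn2 (-0.07). These means rest in part on Recruited total replicate 3, at 15.55, 13.20, 12.17, 13.61 and 11.88 in that order. Replicate 1 was at 14.58, 11.01, 10.34, 11.95 and 10.14 and replicate 2 at 14.47, 11.31, 10.86, 12.06 and 10.24. For these genes Pdgf Cre was at -1.36, -2.87, -1.55, -1.88 and -0.78 and Pdgf at -1.88, -3.20, -2.76, -3.26 and -1.64. The rest of the release set lay more than 2-fold lower in all 3 models. Over the 48 genes 6 rose and 24 fell, where 15.6% of all genes tested rose and 17.7% fell. Syt13 fell at least 18.2-fold, Cplx2 13.3-fold, Vamp1 at least 13-fold, Stx1a 9.36-fold and Sytl2 8.46-fold. Vamp8 rose at least 4.96-fold, Vamp3 4.48-fold, Snap23 at least 4.03-fold, Stx2 2.71-fold and Stxbp3 2.38-fold. Snap23 stood at 8.21, 7.36 and 6.70 in Recruited, 7.49, 6.69 and 7.15 in Pdgf Cre and 8.32, 8.55 and 8.43 in Pdgf total RNA, against dim values of 3.31 to 3.61 in cortex total RNA.

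Recruited total RNA was the most uneven group, with a median SD over the 48 genes of 0.79, against 0.04 to 0.27 in the other 11. Its replicate 3 was at 12.74 for Stx1a, against 8.46 and 10.22 in the other 2, and at 6.59 for Syt1, against 2.31 and 2.35. Without that replicate 6 of the 48 rose and 26 fell. Neuron markers fell in 13 of 14, with log2 summed levels of 14.54 to 16.63 in Recruited, 14.25 to 14.59 in Pdgf Cre and 13.15 to 14.17 in Pdgf total RNA, against 16.19 to 16.53 in cortex total RNA. Microglia markers were above the limit in 6 of 6 in each tumour total group, against 4 of 6 in cortex total RNA, with log2 summed levels of 12.76 to 15.61, 14.61 to 15.51 and 15.14 to 15.28, against 10.44 to 11.41. Progenitor markers rose in 8 of 8 (median 3.99). The part of these lists was not tested.

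The ratio of bound to total RNA was then compared between tumours and cortex for Olig2 cells, in 1 model with an interaction term. Of the 48 genes 14 had a higher ratio in tumours and 6 a lower one, where 15.2% and 15.2% of all genes tested did. In 11 of these 20 all 8 group means were above the limit, and the rest are given as counts because dim means leave their ratios without a clear bound. As the mean of the 3 models, release genes among the 11 were less depleted from bound RNA in tumours, but the models differed. Nsf had a log2 ratio of -2.02 in tumours and -3.35 in cortex, Syp -1.89 and -3.52, Vamp2 -0.25 and -1.73, Cplx1 -1.59 and -2.74 and Syn1 -1.49 and -2.74. By model, Nsf was at -3.04 in Recruited, -1.95 in Pdgf Cre and -1.09 in Pdgf, and Syp at -3.06, -1.80 and -0.82. For Nsf and Syp, the Recruited mean thus lay nearest to cortex, but Recruited total replicate 3 stood apart in it. For Nsf this array was at 13.61, against 11.95 and 12.06 in total replicates 1 and 2. For Syp it was at 13.20, against 11.01 and 11.31. In the same order Vamp2 was at -0.43, -0.12 and -0.21, Cplx1 at -2.33, -1.27 and -1.18 and Syn1 at -2.04, -1.14 and -1.29. Syt4 was at -1.96 in tumours and -4.14 in cortex and Syt16 at -0.03 and -1.73.

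The ratio was lower in tumours for 4 genes. Stxbp3 had a log2 ratio of -0.23 in tumours and 3.62 in cortex (difference -3.85 ± 0.27 SE, limma adjusted p = 2.95e-13), Stx2 0.75 and 3.15, Vamp3 0.41 and 2.55 and Vamp7-ps 0.37 and 1.44. By model, Stxbp3 was at 1.31 in Recruited, -1.45 in Pdgf Cre and -0.54 in Pdgf, so its mean describes no single model. In the same order Stx2 was at 1.47, 0.63 and 0.15, Vamp3 at 1.30, -0.08 and -0.01 and Vamp7-ps at 0.30, 0.43 and 0.39. With same-numbered bound and total arrays as pairs, Syn1 and Syp lost their calls (limma adjusted p = 0.0931 and 0.0515). Syn1 lost it also without cortical Olig2 replicate 1, on the deposited scale (0.0551) and with spike-in scaling (0.101), and Vamp7-ps with spike-in scaling (-0.84) and without any of 4 single arrays (-0.87 to -0.99). Without Recruited total replicate 3, 20 had a higher ratio and 6 a lower one. Marker lists moved in the same comparison: the ratio was lower in tumours for 8 of 8 progenitor markers (median -3.12) and 8 of 9 mature oligodendrocyte markers (median -3.03) and higher for 4 of 14 neuron markers and lower for 1 (median 1.24), and their part was not tested. The total RNA of tumours itself, as the mean of the 3 models, fell below that of cortex for 12 of the 13 release genes, as given above.

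**Figure D5:**
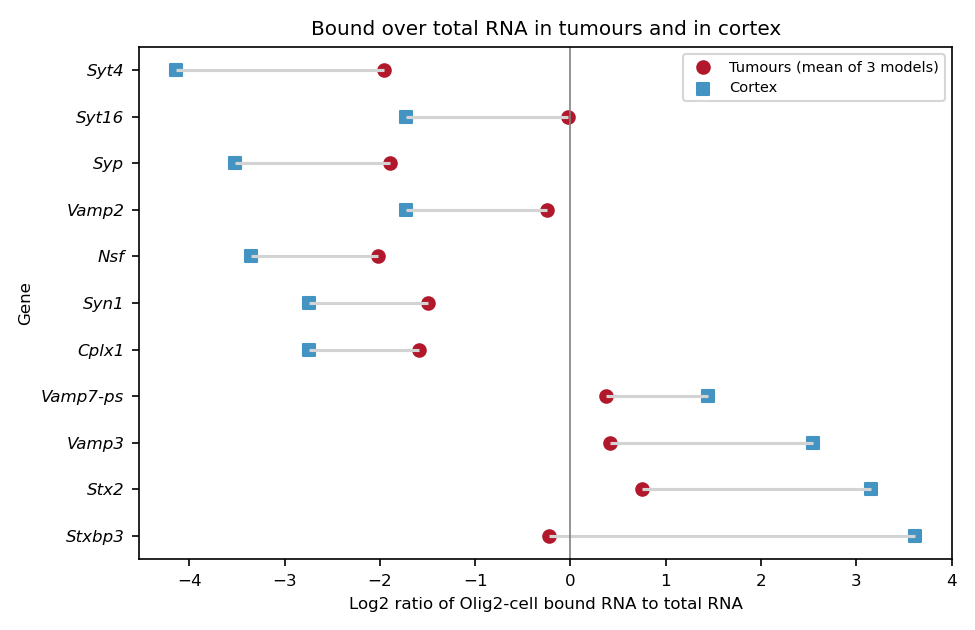
Log2 ratio of bound RNA of Olig2 cells to total RNA in tumours (circles, mean of 3 models) and in cortex (squares) for the 11 genes that passed the interaction test with all 8 group means above the limit. Squares lie farther from 0 than circles for all 11, from Syt4 (-4.14 in cortex) to Stxbp3 (3.62 in cortex).

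Genes of the vesicle cycle outside the rule were counted from a list of 50, of which 48 were measured and 39 tested. In neurons 0 of 39 rose and 2 fell against cortex total RNA, Pclo (piccolo, an active zone scaffold) by 2.78 and Synj1 (synaptojanin) by 1.09 on the log2 scale, where 8.32% of all genes tested rose and 9.12% fell. In astrocytes 2 rose and 31 fell (median -3.10), in mature oligodendrocytes 3 rose and 28 fell (-1.68), in progenitors 4 rose and 28 fell (-1.92) and in cortical Olig2 cells 5 rose and 30 fell (-1.88). Over all genes tested, 23.8%, 21.0%, 17.9% and 20.8% fell in these 4 populations in that order. In astrocytes Erc2 fell by 5.87, Napb by 5.81 and Slc32a1, the vesicular GABA transporter, by 5.32 on the log2 scale, while Syngr2 rose by 2.76 and Snapin by 1.64. Tumour Olig2 cells against cortical Olig2 cells gave 1 higher, Rab3b (2.80), and 12 lower, from Synpr (-3.38) to Ppfia3 (-1.06), where 8.06% and 9.36% of all genes tested were. Tumour bound against total RNA gave 0 higher and 18 lower by limma, where 11.5% and 11.3% of all genes tested were, and tumour total against cortex total RNA 2 higher and 28 lower, where 15.6% and 17.7% were.

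SNAREs of the endoplasmic reticulum and Golgi outside the rule, 12 in number and all tested, served as a group with no known part in transmitter release. Against cortex total RNA, 8 of 12 rose and 1 fell in astrocytes (median 1.11), where 25.6% of all genes tested rose and 23.8% fell. In neurons 4 rose and 0 fell (0.59, with 8.32% and 9.12% of all genes tested). Cortical Olig2 cells had 4 higher and 1 lower (0.75, with 22.3% and 20.8%). Mature oligodendrocytes had 4 higher and 2 lower (0.285, with 19.9% and 21.0%) and progenitors 3 higher and 1 lower (-0.02, with 18.0% and 17.9%). In tumour bound against tumour total RNA 4 of 12 rose and 0 fell (0.86), where 11.5% of all genes tested rose and 11.3% fell. In tumour against cortical Olig2 cells limma called 0 in either direction (0.38), where 8.06% of all genes tested rose and 9.36% fell.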

How the data were processed

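Bound or total RNA was extracted with Trizol and columns, amplified in 2 cycles and hybridised, per the labels' protocols. The deposited values are log2 signals made with GCRMA, per the submitters' processing notes; its version and annotation are not given in the sources used here. In the deposited log2 values each group shares its own minimum, as values normalized group by group would. Here the 38 arrays were quantile normalized together. Of 16395 probe sets 64 were controls and 15644 named a gene; 5845 genes that did not exceed log2 50 on at least 3 arrays were removed and 9799 tested with limma 3.58.1 (R 4.3.3), in 1 model of 12 groups with 26 residual degrees of freedom, over 17 comparisons. Adjustment was by Benjamini-Hochberg over all genes tested, within each comparison. A call needed an adjusted p under 0.05 and a 2-fold difference of group means, those under log2 50 being raised to it.

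The genes, sets and marker lists were chosen with earlier results of these data known. Genes named are, per comparison, up to 5 with the largest changes each way, the 2 sets and members described by role. Arrays give no depth, and their number limits the precision. Same-numbered bound and total arrays of a tumour model deviated together (correlations over genes of 0.626, 0.618 and 0.473 in Pdgf, 0.621, 0.428 and 0.555 in Pdgf Cre, 0.466, 0.266 and 0.488 in Recruited), so they were also fitted as pairs. Tried as alternatives were the deposited scale, scaling on 18 spike-in probe sets, a limit of log2 100, no filter, dim means not raised, no fold minimum, a trended and robust prior, the compared groups alone, a replicate block, and each array left out. The procedure was tested on simulated data.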

Additional observations from a re-analysis of the deposited data

Results flagged for a closer look

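In cortex total RNA, 11 of the 45 genes above the limit there had 1 of the 5 arrays far from the others. Far means a gap over 0.71 of the range, which for a single gene chance alone gives about 1 time in 20. All 45 genes were read on the same 5 arrays, so this rate cannot say whether 11 is more than chance. Replicate 5 had the highest mean neuron marker level, at 11.83, against 11.23 to 11.43 in the others. Its mean level of the release set was also the highest, at 12.09, against 11.76 to 11.79. Replicate 5 was high for Sv2a (12.51, the others 11.45 to 11.64), Syp (13.16, the others 11.84 to 12.06), Syt1 (8.35, the others 7.11 to 7.34), Vamp2 (11.47, the others 11.10 to 11.18), Stx7 (11.71, the others 11.31 to 11.40) and Cplx3 (7.68, the others 7.38 to 7.46). Replicate 2 was low for Snap25 (15.1, the others 15.22 to 15.26) and Stx17 (6.69, the others 6.83 to 6.88). Stx6 was low in replicate 3 (9.56, the others 9.70 to 9.74), Syt17 high in replicate 4 (7.1, the others 6.42 to 6.49) and Vamp7-ps high in replicate 1 (8.76, the others 8.44 to 8.53).

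The log2 ratio of bound to total RNA in tumours minus that in cortex passed limma's interaction test for 11 genes measured in all groups. The difference was 2.18 for Syt4, 1.7 for Syt16, 1.63 for Syp, 1.48 for Vamp2, 1.32 for Nsf, 1.25 for Syn1 and 1.15 for Cplx1. It was -3.85 for Stxbp3, -2.4 for Stx2, -2.14 for Vamp3 and -1.06 for Vamp7-ps. The adjusted p ran from 2.95e-13 for Stxbp3 to 0.0221 for Syn1.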

How the results depend on the processing

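Neurons against cortex total RNA gave 17 genes higher on the deposited scale, 3 with no filter, 10 with no fold minimum (and 14 lower), and 2 to 5 with single arrays left out. Mature oligodendrocytes against cortex gave 14 higher with spike-in scaling and 16 with no fold minimum. Neurons gave 6 lower against astrocytes with spike-in scaling, 14 lower against mature oligodendrocytes and 14 against progenitors with no fold minimum, and 32 higher against progenitors on the deposited scale, where Stx12 reversed (0.0182). Progenitors against mature oligodendrocytes gave 7 higher with dim means not raised, 11 with no fold minimum, and 11 lower on the deposited scale, 13 with spike-in scaling and 12 with no fold minimum. Tumour against cortical Olig2 cells gave 5 higher with no fold minimum and 0 to 1 with single arrays left out (limma), and 17 lower with dim means not raised and 25 with no fold minimum. Against progenitors 0 were higher with spike-in scaling and 0 with a limit of log2 100 (limma), 2 with dim means not raised and 6 with no fold minimum, which gave 33 lower. Tumour bound against total RNA gave 1 higher on the deposited scale, 1 with spike-in scaling and 10 with no fold minimum, and tumour total against cortex 11 higher with no fold minimum. Pdgf Cre against Pdgf gave 1 higher with dim means not raised, 1 in the compared groups alone, 1 with the replicate block and 3 with no fold minimum; lower were 4 on the deposited scale, 4 with dim means not raised, 9 with no fold minimum and 1 with the block. Recruited against Pdgf gave 8 higher with dim means not raised, 17 with no fold minimum and 2 with the block; lower were 1 with spike-in scaling, 4 with no fold minimum, 1 with the block and 1 to 3 with single arrays left out. Recruited against Pdgf Cre gave 16 higher on the deposited scale, 22 with no fold minimum and 6 lower with no fold minimum.

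Where no value or construction shows it, the cause was not tested. Of 369 calls on single genes the limit of log2 100 ended 41, spike-in scaling 37, the replicate block 14, the compared groups alone 5 and no filter 2. The deposited scale ended 22 and reversed the sign of 1 more, Stx12 in neurons against progenitors. The trended prior ended 0. Dim means not raised and no fold minimum also ended 0, but dropping the fold minimum only loosens the rule and could end none. Leaving dim means unraised can only enlarge a difference between 2 single groups. With the block the lost calls included Sytl2, Sv2a, Snap25 and Syn1 in Recruited against Pdgf (adjusted p 0.0522, 0.103, 0.104 and 0.0735), Sytl2, Sv2a, Syp and Syt9 in Recruited against Pdgf Cre (0.0629, 0.108, 0.174 and 0.0595), Stxbp3 in Pdgf Cre against Pdgf (0.0602) and Sv2a in progenitors against mature oligodendrocytes (0.0508). The block ended no call in tumour bound against total RNA. Outside bound and total arrays of a model the samples share only a number. On the deposited scale the median of all genes tested shifted by 0.53 in neurons against cortex, 0.41, 0.17 and 0.60 in neurons against astrocytes, mature oligodendrocytes and progenitors, -0.21 in progenitors against mature oligodendrocytes, -0.13 in tumour bound against total RNA and 0.15 in tumour total against cortex. Dim probe sets give bounds alone.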

Other observations

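The vesicle cycle genes outside the rule also entered the comparison of ratios of bound to total RNA: 22 of 39 had a higher ratio in tumours than in cortex and 4 a lower one, with a median of 1.34 on the log2 scale, against 0.00 over all genes tested, where 15.2% were higher and 15.2% lower. Between tumour models they gave 3 higher and 4 lower in Recruited than in Pdgf Cre cells (11.7% and 12.1% of all genes tested), 1 higher and 2 lower in Recruited than in Pdgf cells (8.13% and 8.04%) and 2 higher and 3 lower in Pdgf Cre than in Pdgf cells (4.48% and 4.79%). Against cortical progenitors, tumour Olig2 cells had 3 of 39 higher and 15 lower, where 11.5% and 13.1% of all genes tested were.

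Endothelial markers, of which 2 of 8 were tested, were dim in all bound groups and in cortex total RNA and above the limit in the 3 tumour total groups.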
